A study of Homo sapiens with 2 samples.

Results

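The HOX cluster genes of Y79 cells, a cell line grown from a human retinoblastoma, were read from a whole genome expression array. Members were all non-control probes whose gene name in the array design begins with HOXA, HOXB, HOXC or HOXD followed by a number. This rule took 53 of the 41000 transcript probes and 40 of the 30967 gene names. Of these names, 39 are protein coding HOX genes, and the remaining name, HOXA11S, is an antisense transcript that RefSeq lists as HOXA11-AS.

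HOX genes encode homeodomain transcription factors that give cells their position along the head to tail axis. They lie in 4 clusters, and genes at the same place in different clusters form 13 paralogue groups that are numbered in the order of the clusters, low numbers acting toward the head and high numbers toward the tail and limb ends. The retina grows out of the forebrain, which lies in front of the territory where HOX genes pattern the embryo, and Polycomb proteins keep the clusters silent in such tissue.

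The study used siRNA against Ep-CAM, a surface protein by which epithelial cells adhere to each other, and recorded expression with a 1-colour Agilent array. The untreated group was 1 array of Y79 cells in suspension culture, labelled as an untreated control. The labels do not state whether this culture received a scrambled siRNA. The paper's text describes it as without siRNA, while its heat map caption names both untreated cells and a nonsilencing control siRNA. The EpCAM siRNA group was 1 array of Y79 cells collected 48 h after Ep-CAM siRNA. By the study's methods both cultures had first been exposed to the demethylating agent 5'-azacytidine, so neither array shows Y79 cells without that drug. With 1 array per group there was no test, no p-value is given, and precision is limited by how few arrays there are. In RNA from whole cultures, fewer cells with a transcript and less of it per cell cannot be told apart.

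Each array carried 45015 spots. A signal here is the background-subtracted brightness of a spot, and a level is that signal over the median of the array's transcript spots, which was 48.8 in the untreated and 50.0 in the siRNA-treated array. A probe was taken as well above background where the scanner software flagged it so, and as measured where this held on both arrays. The lowest signal flagged well above background was 14.9 in the untreated and 17.5 in the siRNA-treated array. Among the 153 negative control spots, 0 carried the flag in the untreated and 1 in the siRNA-treated array. Each HOX probe was printed once, and none was an outlier or saturated spot. Both errors given beside ratios are technical and leave out differences between cultures. The scanner error of a log2 ratio, from the software's own error estimate for each spot, ranged from 0.20 to 0.35 over the measured HOX probes. The SD of the log2 ratio over repeated spots was 0.14, the median of 194 measured probes that were printed 10 times.

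The probe of the siRNA target was flagged well above background on neither array. The Ep-CAM probe, under its older symbol TACSTD1 (chr2:47525545-47525604 on the plus strand, build hg17), gave a signal of 15.6 in the untreated and 11.96 in the siRNA-treated array. Both signals lay above the 99th percentile of the negative control spots, 5.71 and 6.87. No fold is given for this pair, so these arrays do not check the knockdown in the array labelled EpCAM siRNA. The paper checked it by other means, reporting at 48 h less Ep-CAM mRNA by quantitative RT-PCR and less protein by western blot and immunofluorescence.

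Most HOX genes were well above background on these arrays. In the untreated array 29 of 40 HOX genes (72.5%) had a probe well above background, against 75.3% of all genes. In the siRNA-treated array it was 30 of 40 (75%), against 73.0% of all genes. Counted by probe, 35 of 53 (66.0%) and 36 of 53 (67.9%) carried the flag, against 70.1% and 67.6% of all probes. These shares lie near the background, so the HOX genes were detected about as often as genes at large. Both arrays detected 27 of the 40 HOX genes, against 71.5% of all genes, and 32 were detected on at least 1 array. The 15 HOX probes not well above background on either array had signals of 3.30 to 18.7 in the untreated and 4.23 to 20.1 in the siRNA-treated array. The highest of these signals were those of a HOXA13 probe in the untreated array and of a probe named HOXA10 in the siRNA-treated array.

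Most HOX probes lay below the median of the array. Of the 53 probes, 19 (35.8%) lay above it in the untreated and 22 (41.5%) in the siRNA-treated array, against 49.6% of all probes on each array. The median HOX level was 0.78 array medians in the untreated and 0.69 in the siRNA-treated array. Leaving out 1 bright HOXA3 probe, the measured HOX probes ran from 0.55 to 7.82 array medians in the untreated and from 0.54 to 7.96 in the siRNA-treated array. Brightness also depends on the probe, so these levels do not rank genes by amount of RNA, here or in the lists and sums given later.

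**Figure D1:**
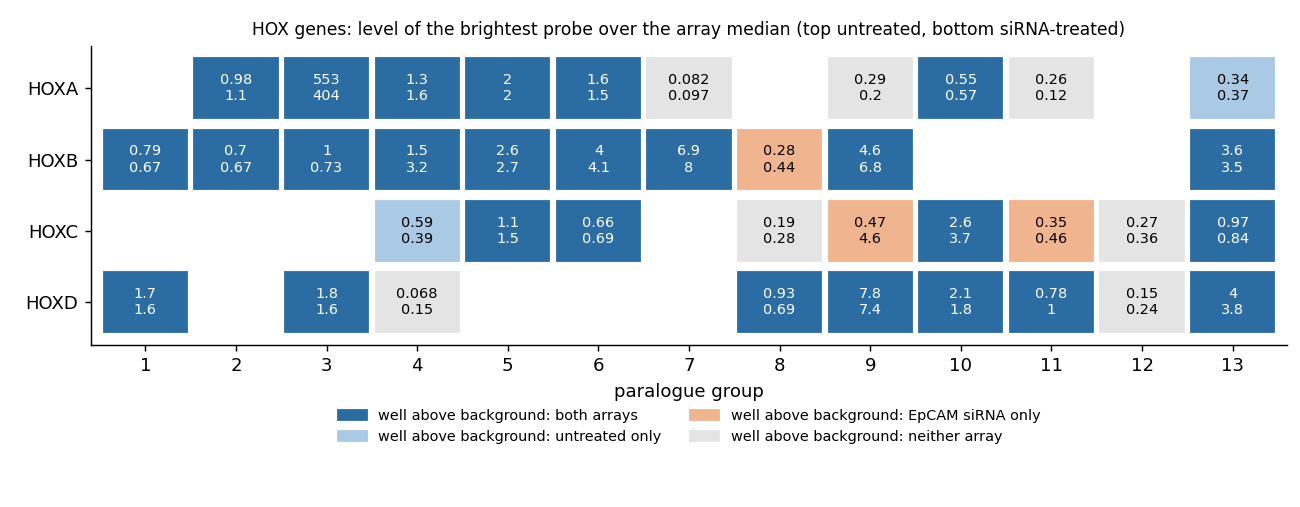
Map of protein coding HOX genes by cluster and paralogue group, each box holding the level of the gene's brightest probe in the untreated (top) and siRNA-treated (bottom) array as a multiple of the array median. Colour gives the arrays on which a probe of the gene was well above background, which was both arrays in at least 1 gene of every paralogue group except group 12. Blank positions hold no gene or are not shown, and levels of different probes are not comparable as amounts of RNA.

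The detected genes were spread over the 4 clusters and along their length. Of paralogue groups 1 to 4, the hindbrain and neck genes, 9 of 12 were well above background on both arrays. Of groups 5 to 8, which pattern the trunk, the count was 8 of 11. Of groups 9 to 13, which pattern the lower trunk, limbs and urogenital tract, it was 9 of 16, against the same 71.5% of all genes; whether the groups differ was not tested. Group 12 was the only group with none detected on either array (0 of 2 genes), while in the neighbouring group 13 all 4 genes were detected in the untreated array and 3 in the siRNA-treated array.

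In the HOXA cluster, which spans 104 kb of chromosome 7 between its outermost probes, 8 of 12 names were detected in the untreated and 7 in the siRNA-treated array. HOXA2, which patterns the second pharyngeal arch, gave 47.8 in the untreated and 52.6 in the siRNA-treated array. HOXA4 gave 63.1 and 82.3, and HOXA5, a gene of lung and neck development, gave 95.6 and 102. HOXA6 gave 80.2 and 76.3. None of these pairs differed by more than 2 scanner errors. HOXA10, which patterns the uterus and the lumbar region, had 1 of 3 probes well above background, at 27.0 and 28.5. The antisense transcript HOXA11S gave 33.8 and 27.0, whereas the probe for HOXA11 itself was at 12.6 and 5.94, without the flag on either array. HOXA13, a gene of the hand plate and the urogenital tract, was detected in the untreated array only, by a probe that gave 16.8 there and 18.7 in the siRNA-treated array, which allows no fold in either direction. Its other probe gave 18.7 and 10.2, the highest untreated signal of the cluster without the flag on either array. HOXA7 and HOXA9 were not well above background on either array.

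HOXA3, which directs the third pharyngeal arch and with it the thymus and parathyroids, had a bright probe and a dim one. The bright probe gave a signal of 26981 in the untreated array and 20229 in the siRNA-treated array, or 553 and 404 times the array median. The other probe, 3.15 kb away, gave 3.79 and 9.70 and was flagged on neither array. Both probes were designed to the same HOXA3 transcript record, on the minus strand at chr7:26923159-26923218 (bright) and chr7:26920011-26920070 (dim). Their sequences differ in base composition, 81.7% G and C in the bright probe and 35% in the dim one. They are shown 5' to 3', the bright probe whole and the dim one by its first 30 bases, with capitals marking runs of at least 4 C or 4 G.

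HOXA3 bright probe: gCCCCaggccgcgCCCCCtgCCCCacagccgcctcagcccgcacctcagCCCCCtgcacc

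HOXA3 dim probe: taattcctttaaacggtaacgatgcaataa

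The bright probe holds 37 C and 12 G among its 60 bases. It has 4 such runs, a number of runs found in 53 probes of the array. No other HOX probe was above 60% G and C. Of all probes, 71 had at least 80% G and C, and all 71 were well above background in the untreated array. Of these, 14.1% had an untreated signal above 10000, against 1.16% of the remaining probes. Which of the HOXA3 probes follows the transcript in these cells was not tested.

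The HOX probes poorest in G and C were detected least often. Of the 22 HOX probes with under 40% G and C, 9 were well above background in the untreated array, or 11 in the siRNA-treated one, against 44.3% and 41.4% of all probes of that composition. Of the 18 with 40% to 50%, 15 were on each array (all probes, 78.6% and 75.9%). Of the 13 with 50% or more, 11 and 10 were (all probes, 96.5% and 95.4%). In the same order the median untreated level of HOX probes was 0.32, 1.38 and 0.70 array medians (all probes, 0.277, 1.18 and 3.075). It did not rise from 40% to 50% to the richest group as it did for all probes. Across the 53 HOX probes of the untreated array, Pearson's r between G and C percent and log2 level was 0.53, and across the 52 without the bright HOXA3 probe it was 0.30. The same r over all 40976 probes with a value was 0.49. These are correlations across probes of 1 array, and probes are not independent replicates. The part of base composition in the detection of each HOX gene was not tested.

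**Figure D2:**
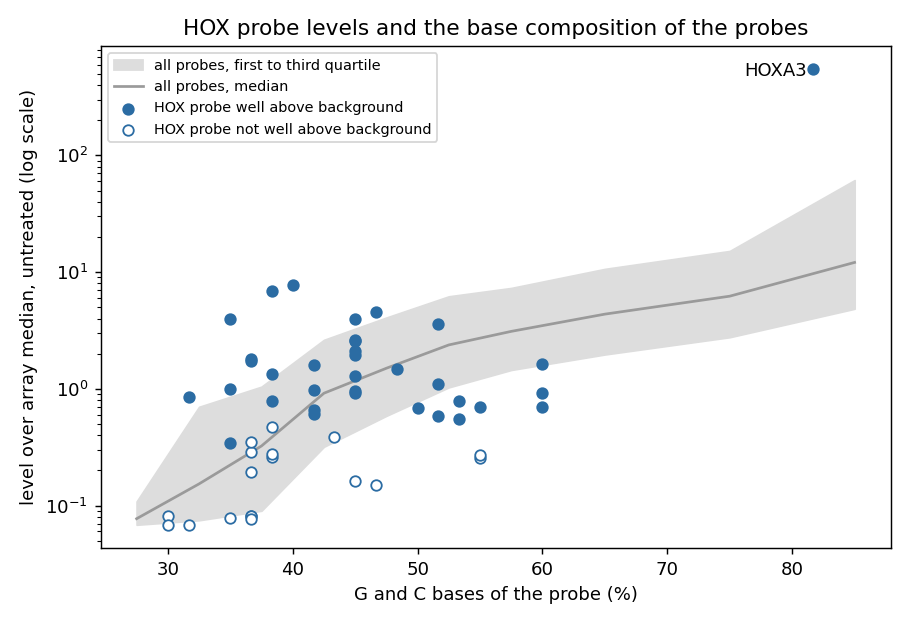
Level in the untreated array, as a multiple of the array median on a log scale, against the percent of G and C bases, for the 53 HOX probes (points, filled where well above background) and for all probes (line, median; band, interquartile range). The bright HOXA3 probe, at 81.7% G and C, lies apart from the other HOX probes, which reach 60% at most.

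In the HOXB cluster, spanning 196 kb (chr17:43962915-44158957), 9 of 10 genes were detected in the untreated and all 10 in the siRNA-treated array. HOXB1, a marker of the fourth hindbrain segment, gave 38.4 in the untreated and 33.4 in the siRNA-treated array. HOXB5 gave 128 and 137, and HOXB6 gave 196 and 204 with the brighter of its probes. HOXB8 was well above background in the siRNA-treated array only, at 13.5 and 22.1, which bounds it at least 1.44-fold higher there. Such a bound sets the bright array against the higher of the dim probe's own level and the lowest level flagged on the dim array. It carries no scanner error and holds for the main processing. The bounds of HOXB8 here and of HOXC4 and HOXC11 below were smaller under some alternatives, given at the end. HOXB13, a gene of the prostate and tail end, gave 176 and 175 with the brighter probe and 66.1 and 84.4 with the other. HOXB7 gave 338 and 398 with its brighter probe, while a probe 3.27 kb away was flagged on neither array, at 3.35 and 4.23. That dim HOXB7 probe was the only probe of the cluster without the flag on either array.

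In the HOXC cluster, spanning 108 kb (chr12:52626301-52734105), 5 of 9 genes were detected in the untreated and 6 in the siRNA-treated array. HOXC5 gave 54.0 in the untreated and 77.1 in the siRNA-treated array. HOXC6 gave 32.3 and 34.8, and HOXC13, a gene of hair and nail growth, gave 47.2 and 42.2. None of these 3 genes differed by more than 2 scanner errors. HOXC4 was detected in the untreated array only, at 28.6 against 19.6, a bound of at least 1.50-fold lower in the siRNA-treated array. HOXC11 was detected in the siRNA-treated array only, at 17.1 and 23.0, a bound of at least 1.31-fold higher there. HOXC12 gave 13.3 and 18.0, the highest signals without the flag on either array among probes named HOXC, and both probes of HOXC8 were also without it.

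HOXC10, a gene of lumbar spinal cord and hindlimb identity, again had a pair of probes of which only 1 was detected. The bright probe (chr12:52670027-52670086, plus strand) gave 125 in the untreated and 183 in the siRNA-treated array. The other probe, designed to the same transcript record, gave 3.73 and 5.00.

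The probes were searched for the 8 letters TGGTTNCA, which spell part of the third helix of many homeodomains, the helix that contacts DNA. They were found in 4 of the 53 HOX probes and on the other strand of 0 of them, against 0.588% of all probes (241 probes; 243 on the other strand). Of the 4, those of HOXB2 and HOXB6 were well above background on both arrays, and the other 2, among them a probe named HOXA10, were flagged on neither. The probe named HOXA10 lies at chr12:52709820-52709879 on the plus strand, within the HOXC cluster and not on the chromosome of HOXA10, and the array design describes it as a homeodomain fragment of HOXC6. It is shown whole beside the HOXB6 fragment probe (chr17:44028861-44028920, minus strand), with the searched letters in capitals.

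HOXA10 named probe: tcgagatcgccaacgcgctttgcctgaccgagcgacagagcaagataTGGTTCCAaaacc

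HOXB6 fragment probe: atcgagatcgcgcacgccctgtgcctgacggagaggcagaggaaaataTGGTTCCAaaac

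With a shift of 1 base, 50 of 59 aligned bases of this pair were equal (84.7%), the most alike of all 1378 pairs of HOX probes, of which 6 had 65% or more equal bases. The homeodomain is the part in which HOX genes resemble each other most. Signals of the probe named HOXA10 were 12.5 in the untreated and 20.1 in the siRNA-treated array, and those of the HOXB6 fragment probe were 33.8 and 33.5. Whether either probe also binds RNA of other HOX genes was not tested.

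In the HOXD cluster, spanning 96.0 kb (chr2:176784921-176880938), the same 7 of 9 genes were detected on both arrays. HOXD1 gave 84.6 in the untreated and 81.5 in the siRNA-treated array, and HOXD3 gave 87.9 and 77.9. HOXD9 gave 382 and 370, and HOXD10, a gene of lumbar motor neurons, gave 103 and 87.8. HOXD13, which shapes the digits, gave 195 and 191. All 5 pairs differed by less than 2 scanner errors, as did HOXD8 at 45.2 and 34.3 and HOXD11, a forearm and kidney gene, at 38.1 and 50.3. HOXD12 gave 7.35 and 11.8, the highest signals of the cluster without the flag on either array, and HOXD4 was not detected either.

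The HOX probes had a median ratio near that of the probes at large and a slightly wider spread, a difference that was not tested. Over the 33 measured HOX probes, which belong to 27 genes, the median log2 ratio of siRNA-treated over untreated was -0.04, against -0.03 over all 26976 measured probes. Ratios ran from -0.60 to 1.13, with 16 above 0 and 17 below. Their SD was 0.37, against 0.33 over all measured probes. By cluster the median was 0.05 for HOXA, 0.03 for HOXB, 0.28 for HOXC (4 probes) and -0.09 for HOXD. These probes passed through being bright enough on both arrays, so the medians describe the measured probes and not all HOX genes.

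**Figure D3:**
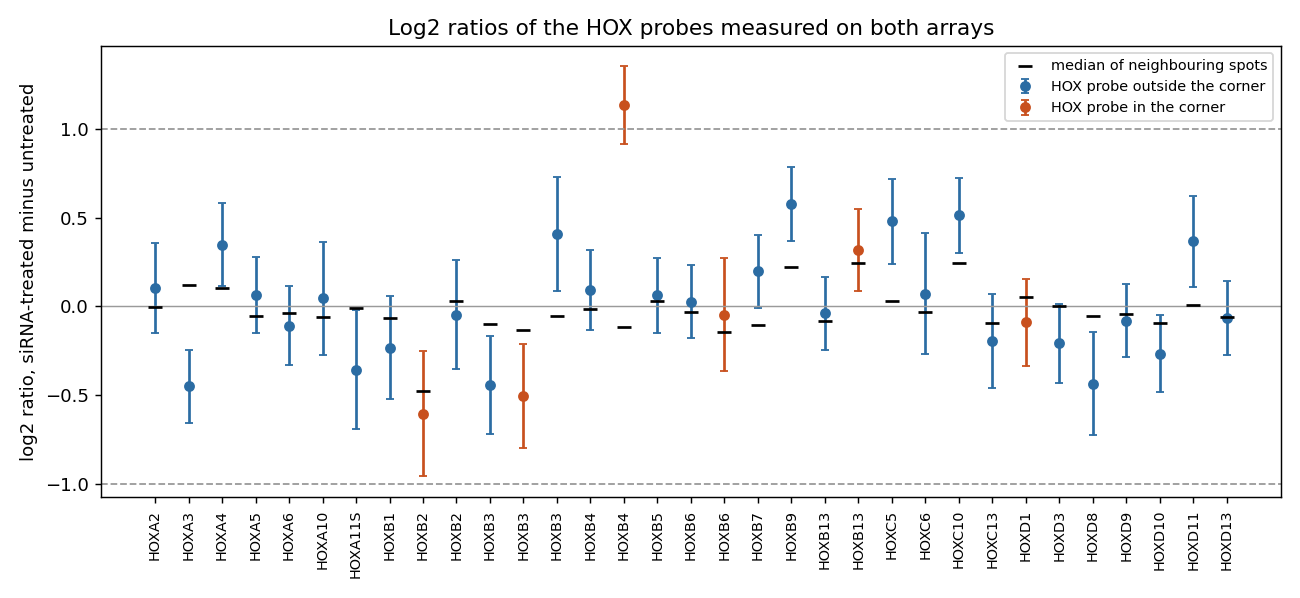
Log2 ratio, siRNA-treated minus untreated, of the 33 HOX probes measured on both arrays (points; bars, 1 scanner error either way) with the median of the measured probes within 5 rows and 5 columns of each spot (dashes), and dashed lines at 2-fold. A single probe lies past 2-fold, a HOXB4 probe in the corner of the array that is boxed in the map of the surface, and the second HOXB4 probe lies at 0.09.

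A ratio over 2 scanner errors from 0 was found for 4 of the 33 measured HOX probes, against 11.5% of all measured probes printed once. These were single probes of HOXA3, HOXB4, HOXB9 and HOXC10. The bright HOXA3 probe had a log2 ratio of -0.45 ± 0.20 (scanner error), but -0.14 with quantile normalization, under 1 scanner error. It was past 2-fold lower only with another background correction, normexp, at -1.17, which also shifted the median of all measured probes to -0.20. With normexp fitted without the only spot dimmer than its local background, an alternative chosen after seeing the data, it was -0.50 and the median of all measured probes -0.02. HOXB9, a gene of the thoracic region, gave 222 in the untreated and 340 in the siRNA-treated array, a log2 ratio of 0.58 ± 0.21. The bright HOXC10 probe had 0.51 ± 0.21. With normexp these were 0.09 for HOXB9 and 0.12 for HOXC10, both under 1 scanner error, and without the dim spot 0.55 and 0.46, both over 2. The spots of HOXB9 and HOXC10 share column 27 of the array, in rows 489 and 505, and the other probes around them had medians of 0.22 and 0.25. Neither gene reached 2-fold, and with those medians taken off their ratios were 0.36 and 0.27, both under 2 scanner errors.

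Past 2-fold, 2 of the 32 HOX genes detected on at least 1 array were higher in the siRNA-treated array (6.25%), HOXB4 and HOXC9, against 1.30% of all genes so detected. None was lower, against 0.876% of those genes. HOXA13 counts among the 32 although it allows no fold. HOXC9 was detected in the siRNA-treated array only. HOXB4 is counted by the probe that was the dimmer of its pair in the untreated array and the brighter in the siRNA-treated one. The siRNA-treated values thus helped decide how both genes entered the count. A count of 2 is too small to set against these shares, and both calls came from spots in a single region of the array surface. This region is the corner with the highest row and column numbers, in which log2 ratios of all measured probes had an SD of 0.51, against 0.29 in the rest of the array. It was known from earlier results of these data. For HOX probes the SD was 0.63 over the 6 measured in the corner, 0.37 over the 5 of them other than HOXB4, and 0.30 over the 27 outside it, a difference that was not tested. Outside the corner the HOX ratios ran from -0.45 to 0.58.

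**Figure D4:**
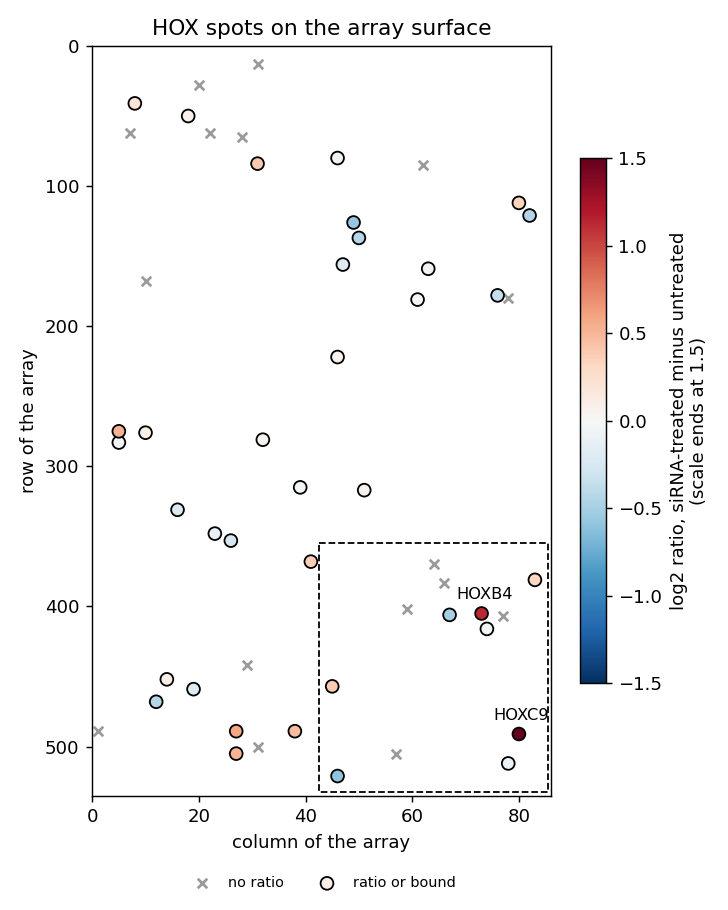
Position of the 53 HOX spots by row and column of the array, coloured by log2 ratio of siRNA-treated minus untreated or its bound (crosses, no ratio; colour scale ends at 1.5), with the corner as a dashed box. Both genes past 2-fold, HOXB4 and HOXC9, lie inside the box, which holds 13 of the 53 spots.

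HOXC9, a gene of the thoracic spinal cord and rib cage, is represented by a single probe (chr12:52682879-52682938, plus strand). It gave 23.2 in the untreated array, not well above background, and 229 in the siRNA-treated array, which bounds it at least 9.63-fold higher there. The spot lies in row 491 and column 80. Around it 69 probes were measured, with a median log2 ratio of 0.54 and an SD of 0.85, and 13 of them were at least 2-fold higher. Without the spots of the corner HOXC9 had no value, and it stayed past 2-fold in every alternative that gave it one, with 1.35 (normexp) as the lowest log2 ratio. No second HOXC9 probe was there to check it.

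HOXC9 probe, first 30 bases: agaaaactcttgcgatttgggagggttcag

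HOXB4, which promotes the growth of blood stem cells, had a pair of probes 2.47 kb apart on the minus strand that gave different ratios. The probe with the higher mean signal (chr17:44010601-44010660) gave 72.0 in the untreated and 162 in the siRNA-treated array, a log2 ratio of 1.13 ± 0.22 (scanner error). The other probe (chr17:44008131-44008190) gave 78.3 and 85.6, a ratio of 0.09 ± 0.22. The first lies in the corner, in row 405 and column 73, where 65 measured neighbours had a median of -0.12. The second lies outside it, with neighbours at -0.01. HOXB4 was under 2-fold without the corner (0.09), with the mean of its probes (0.61), with normexp (0.43, or 0.74 without the dim spot) and with the authors' series value table (0.69). Normexp here adds an offset of 50 to every signal, and the series value table keeps the background. Both additions draw ratios of dim probes toward 0, so these lower values were in part set by the method.

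HOXB4 probe in the corner, first 30 bases: gatcaactcaaactatgtcgaccccaagtt

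HOXB4 probe outside the corner, first 30 bases: cagcagaagcctctctcctagactgaaaat

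Probes of a gene often gave different answers. Of 11 HOX genes with several probes, 5 had all of them well above background on both arrays, 5 had some but not all in the untreated array, and HOXC8 had none. In the 5 genes with at least 2 measured probes, the log2 ratios of a gene lay 1.04 apart for HOXB4, 0.91 for HOXB3, 0.56 for HOXB2, 0.36 for HOXB13 and 0.07 for HOXB6. HOXB3, a hindbrain gene, had ratios of -0.44, -0.51 and 0.41 with 3 probes, so no direction is given for it. Its signals in the untreated and siRNA-treated array were 48.6 and 36.6, 45.1 and 32.6, and 29.5 and 40.1. HOXB2, also of the hindbrain, gave 33.99 and 33.7 with a probe outside the corner, a ratio of -0.05. A second HOXB2 probe, in the corner, gave 41.2 and 27.7, a ratio of -0.60, with its neighbours at -0.47.

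Genes that share the HOX loci had median ratios near 0 as well. Within the clusters, between the outermost HOX probes, 22 probes of other names were found, of which 16 were measured with a median log2 ratio of 0.06. Within 500 kb of the clusters on either side there were 98 more, of which 75 were measured with a median of -0.08. EVX1, the homeobox gene next to HOXA13, gave 848 in the untreated and 890 in the siRNA-treated array. Of these 120 flanking probes, 16 within and 79 beside the clusters were well above background on at least 1 array. None was at least 2-fold lower, and 3 were at least 2-fold higher. All 3 lay around HOXB and in the corner, which holds 20 of the 120. Of all genes detected on at least 1 array, 1.30% were higher and 0.876% lower, shares by gene and not by probe. A count of 3 is too small to set against them. PRAC, a small gene beside HOXB13 that is active in prostate and large bowel, gave 85.5 and 296 with a probe there (log2 ratio 1.75) and 39.7 and 47.7 outside it (0.23). TTLL6, which adds glutamate to tubulin, gave 65.2 and 434 in the corner (2.70) and 127 and 124 outside it (-0.07). The last of the 3, BM692484, gave 42.5 and 108 (1.31), under 2-fold with normexp (0.59, or 0.73 without the dim spot) and the series value table (0.62).

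Partners and regulators of HOX proteins were described by lists, each counted whole beside the HOX genes. Of all genes, 75.3% were detected in the untreated and 73.0% in the siRNA-treated array, the shares beside which the list counts stand. TALE homeodomain proteins bind DNA together with HOX proteins, and 9 of 11 were detected in the untreated and 7 in the siRNA-treated array, with a median log2 ratio of -0.04 and none past 2-fold (the 3 brightest were PBX2 at 211 and 207, PKNOX1 at 189 and 211, and TGIF1 at 142 and 209). Trithorax proteins keep HOX genes active, and 8 and 9 of 9 were detected, with a median of -0.15 and none past 2-fold (ASH1L 2209 and 1360, KMT2B 2129 and 1629, KMT2A 661 and 742). Polycomb proteins keep HOX genes silent, and 20 of 21 were detected on each array, with a median of -0.07 and none past 2-fold (the methyltransferase EZH2 37424 and 27349, JARID2 8532 and 6113, EED 3202 and 1915).

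The CDX genes and other ParaHox genes, relatives of HOX genes of which the CDX members switch on HOX genes of the trunk, were all detected on both arrays (6 of 6), with a median of 0.12. GSX1 gave 173 and 502, a log2 ratio of 1.50, from a spot in the corner with 16 of 60 measured neighbours also at least 2-fold higher, and under 2-fold with normexp (0.94) but not without the dim spot (1.45). CDX1 gave 184 and 107, and GSX2 67.5 and 80.7. Of 14 genes that carry the retinoic acid signal, which induces HOX genes, 11 were detected on each array, with a median of -0.04. RARG, a retinoic acid receptor, gave 163 and 485 (1.54) from a spot in the corner and 181 and 196 (0.08) from a probe outside it, and its ratio was 0.98 with the local median taken off. RXRB gave 1556 and 1721, RARA 987 and 1049, and CRABP1 430 and 424. Of 8 other factors tied to HOX regulation, among them geminin and CTCF, 7 were detected on each array, with a median of -0.33 and none past 2-fold (NPM1 37568 and 30723, PRMT1 11139 and 6571).

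Of 16 homeobox genes of the retina itself, 15 were detected in the untreated and 13 in the siRNA-treated array, with a median log2 ratio of -0.14. LHX2, which specifies the eye field, gave 273 and 139, a ratio of -1.01 ± 0.21 (scanner error) from a spot outside the corner, and was the only gene of the list past 2-fold. The call ended with each other scaling, each background correction, the series value table and the local median taken off, with ratios of -0.99 to -0.71. It stayed without the corner. The other filters, probe means and thresholds used for HOX genes were not run for LHX2. POU4F2, a ganglion cell gene, gave 275 and 242, and RAX2 194 and 195.

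**Figure D5:**
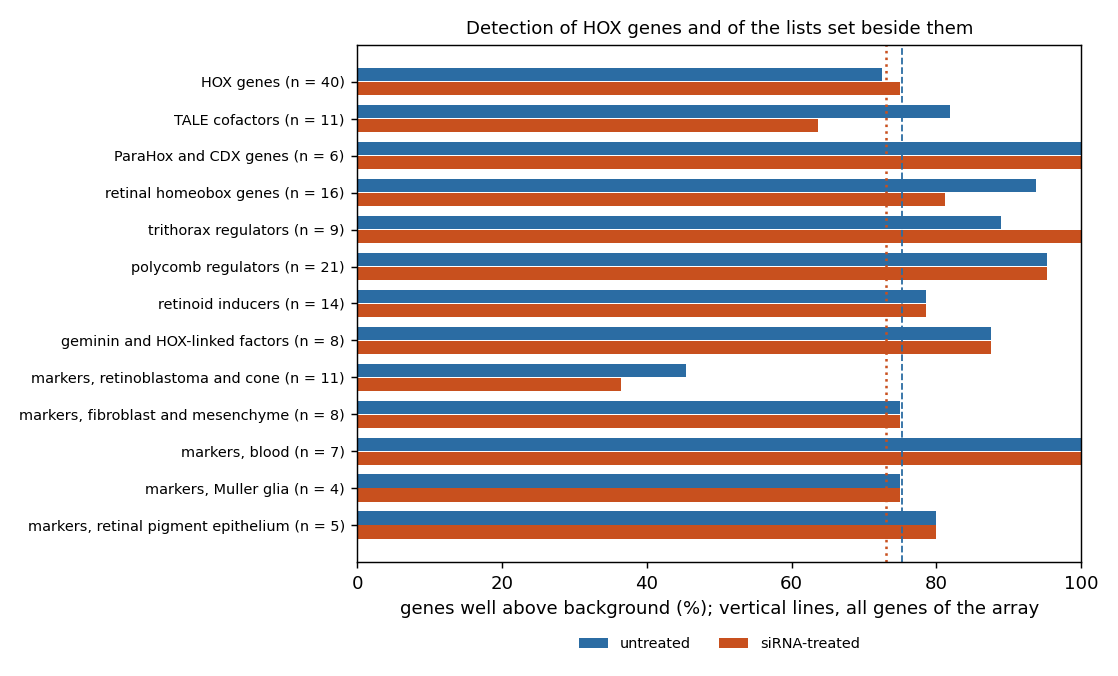
Percent of genes well above background in the untreated and siRNA-treated array for the HOX genes and each list beside them, with the number of genes on the array, and lines at the share of all genes (75.3% dashed, 73.0% dotted). HOX genes lie at 72.5% and 75%, and the retinoblastoma and cone markers lie below both lines.

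Several defining markers of the labelled cell type were not well above background. Of 11 retinoblastoma and cone photoreceptor markers, 5 were well above background in the untreated and 4 in the siRNA-treated array, with summed levels of 7.68 and 6.38 array medians, a median ratio of -0.29, and CRX as the brightest probe of the untreated array (86.8 and 68.7). RCVRN, NRL, RXRG, PDE6H, NEUROD1 and SYP were flagged on neither array. All 7 blood markers were detected on both arrays, with summed levels of 1464 and 1374, nearly all from an HBA2 probe that was saturated on both, while the other HBA2 probe gave 159 and 165. HBB, a globin gene printed 10 times, gave 340 and 1263, a log2 ratio of 1.86 ± 0.12 (SD over spots). With normexp the HBB ratio was 1.10, or 1.70 without the dim spot, both past 2-fold. Of 8 fibroblast and mesenchyme markers, cells in which many HOX genes are active, 6 were detected on each array, with summed levels of 29.5 and 28.7 and COL6A3 as the brightest probe, while LUM and TBX15 were not detected. Of 4 Müller glia markers 3 were detected, with summed levels of 5.12 and 5.31, GFAP having the brightest probe. Of 5 pigment epithelium markers 4 were, with summed levels of 20.6 and 20.0, DCT having the brightest probe, and RPE65 was not detected. The flag was thus also set for markers of cell types that the labels do not name. It was set for 75.3% of all genes in the untreated and 73.0% in the siRNA-treated array. The fibroblast, Müller glia and pigment epithelium counts lie near those shares, so they are no result about these markers. The part of such signals in the count of detected HOX genes was not tested.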

How the data were processed

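Total RNA of Y79 cells was labelled with Cy3 and hybridised to 1 array per group. Per the file headers, the authors extracted each array with Agilent Feature Extraction 9.5.3.1, and the deposited intensity is the background-subtracted processed signal of each spot, with probe positions in build hg17. From these files, control and outlier spots were left out, signals were divided by the median of each array, floored at 0.01 and converted to log2, and repeated spots were averaged by probe, which counted as well above background with 50% of its spots. The brightest probe, that with the highest mean log2 level over both arrays, stands for a gene. A change can thus decide which probe stands for it. Calls were made at 2-fold. Named genes were every HOX gene detected on at least 1 array or past 2-fold, the highest undetected signal of each cluster, list genes called or among the 3 brightest, flanking genes called, and TACSTD1; other names were chosen after their values were seen, and some items are not reported here. The members and lists were chosen with earlier results of these data known. Of the HOX probes, 51 of 53 accessions matched RefSeq (GRCh38.p14), which was used for names only. The series value table, with column medians of 120 and 123, lay within 0.51 of the raw median brightness of the spot for all probes printed once, not scaled or centred, and served as an alternative, as did other scalings, background corrections, filters and thresholds. This table keeps the local background, whose median was 39 on each array, and normexp added an offset of 50 to every signal. Such additions draw ratios of dim probes toward 0, so a dim gene can lose its call with them by arithmetic alone. Python 3.11.15, numpy 2.4.6, pandas 2.3.3, R 4.3.3 and limma 3.58.1 were used.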

Additional observations from a re-analysis of the deposited data

How the results depend on the processing

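The 2 HOX genes at least 2-fold higher became 1 with normexp, 1 with the series value table, 1 with only probes measured on both arrays, 1 with the mean over measured probes and 0 without the corner. It was also 1 with normexp fitted without the only spot dimmer than its local background, an alternative chosen after seeing the data. It became 3 with no filter on dim probes. The 0 lower became 1 with normexp and 1 with no filter on dim probes. Fewer probes enter without the corner and with only measured probes. HOXB4 was the gene lost with normexp (0.43, or 0.74 without the dim spot) and with the series value table (0.69). It was also lost with the mean over measured probes (0.61). HOXA3 was the gene lower with normexp (-1.17). With no filter the added genes were HOXD4 (levels of 0.07 and 0.15) and HOXA11 (0.26 and 0.12), both flagged on neither array. Causes beyond this were not tested. The counts stayed at 2 and 0 with 75th percentile, quantile or no scaling, the local median removed, and thresholds of 1.5 and 0.55. HOX genes detected ranged from 24 to 38 in the untreated and from 26 to 39 in the siRNA-treated array over 4 alternatives each. With the flag for a signal significantly above local background they were 38 and 39, against 90.3% and 89.3% of all genes. Above the 99th percentile of negative control spots they were 38 and 36, against 88.5% and 82.6%. Without the corner they were 27 on each array among fewer names, against 74.8% and 72.3%. The lowest counts, 24 and 26, required every probe of a gene, and no share of all genes was computed for them. The median HOX ratio ranged from -0.02 to 0.05. Of 271 values of single HOX genes under alternatives, 54 moved by over the technical SD of 0.14, 21 of them with normexp. A change of sign was counted only for the called genes, HOXB4 and HOXC9, and neither changed. Uncalled genes did change sign, among them HOXB7 from 0.20 to -0.34 with normexp and HOXD1 from -0.09 to 0.26 with the series value table. The log2 bounds of HOXB8, HOXC4 and HOXC11 were 0.53, -0.58 and 0.39. With the series value table they were 0.18, -0.18 and 0.09. With normexp without the dim spot they were 0.26, -0.18 and 0.13. With normexp HOXB8 was at 0.42 and HOXC11 at 0.32. For the genes other than HOX past 2-fold, alternatives were added after seeing the data; TTLL6, at 2.70, was -0.0745 without the corner, where its other probe stands for it, and PRAC was just under 2-fold with normexp (0.995) but 1.41 without the dim spot. Over all genes, 308 higher and 208 lower became 38 and 906 with normexp, 110 and 66 with normexp without the dim spot, 77 and 70 with the series value table, 89 and 129 without the corner, 925 and 385 with the thresholds of 1.5 and 0.55, and 329 and 161 with quantile normalization. No paired analysis was possible because each group holds 1 array. Signals near the lowest flagged ones limit what can be said of dim HOX genes, and 1 array per group leaves differences between cultures unmeasured.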
